A study of Homo sapiens with 4 samples.

Results

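The genes described here are the serpins, a family of protease inhibitors, together with the 2 plasminogen activators and their cell surface receptor. The members were taken by gene symbol, as SERPIN followed by a clade letter from A to I and a number, plus PLAU, PLAUR and PLAT. The count tables hold 60623 genes, of which 37 members are described, and the symbols alone decided which genes belong, although the family was taken up with earlier results of these data known.

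The data came from RNA-seq of BICR10, a human cell line labelled as head and neck cancer, after lentiviral delivery of a control hairpin (shControl) or of a hairpin against YEATS2 (shYEATS2). YEATS2 encodes a protein that reads acylated histones, and the study silenced it to follow the genes that depend on it. Each group had 2 libraries of polyA RNA from the same line, selected with puromycin as the study's methods describe for its hairpins, so both groups carried a lentiviral vector and differed in the hairpin. The study lists more than a single YEATS2 hairpin, which of them each shYEATS2 library carried was not stated, and the labels name no separate cultures. The study describes its replicates in general as biological but does not say how those of this RNA-seq were made, so what the spread between libraries of a group covers is not given.

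Serpins are suicide inhibitors. A protease cleaves an exposed loop of the serpin, the loop folds into the body of the inhibitor, and the protease is left trapped in a covalent complex. In the plasminogen system PLAU (urokinase, uPA) and PLAT (tissue plasminogen activator, tPA) turn plasminogen into plasmin, which degrades fibrin and matrix proteins. PLAUR (uPAR) holds urokinase at the cell surface, and SERPINE2 (protease nexin 1), SERPINB2 (PAI-2), SERPINI1 (neuroserpin) and SERPINA5 (protein C inhibitor) block the activators, whereas SERPINF2 blocks plasmin itself. The system is well known in carcinomas for its part in invasion. Some serpins, among them SERPINB5 (maspin) and the collagen chaperone SERPINH1 (HSP47), have functions other than the trapping of proteases.

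The libraries held 47297970 and 39824898 counts on genes in shControl and 24072396 and 11334133 in shYEATS2. Depth was thus lower in both shYEATS2 libraries and cannot be told apart from the hairpin. YEATS2 itself stood at 66.1 and 66.7 CPM (counts scaled by TMM to a common library size, the unit of all levels below) in shControl and at 29.2 and 29.1 CPM in shYEATS2, a fall by 1.19 on the log2 scale (standard error 0.078, adjusted p = 3.6e-21, edgeR). The label of the line was set beside marker genes. The summed CPM of 8 squamous epithelial markers was 25.2 to 27.3 in shControl and 8.57 to 8.82 in shYEATS2, with none at 0 in all libraries, TP63 at no more than 3 counts in any library, and 4 of the 6 tested lower and 1 (CDH1) higher. Within the squamous sum KRT5 alone went from a mean of 15.7 CPM in shControl to 1.19 CPM in shYEATS2. For 8 fibroblast markers the sum was 6185 to 6260 CPM in shControl and 1996 to 2121 CPM in shYEATS2, with 6 of the 7 tested lower and none at 0. Most of this sum came from COL1A1 (means of 2796 CPM in shControl and 891 CPM in shYEATS2) and COL1A2 (2616 and 822 CPM). Endothelial markers summed to 35.6 to 36.6 CPM in shControl and 19.0 to 20.2 CPM in shYEATS2, mostly from KDR, with 2 of 7 (TIE1 and CLDN5) at 0 and 3 tested, of which 1 was lower and 1 higher. Hepatocyte markers (2 of 8 at 0, 1 tested and not called) and leukocyte markers (2 of 7 at 0, 1 tested and lower) summed to no more than 2.04 CPM in any library.

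Upon YEATS2 knockdown the urokinase gene showed the largest rise among the members measured in both groups, the tPA gene rose less, and the receptor PLAUR did not pass the test. Among the serpins, SERPINE2, SERPINB6 and SERPINB1 rose and SERPINB5 and SERPINH1 fell. Of the 37 members described 13 had enough counts for a test. In this fit 22.6% of all 17058 tested genes were called higher and 23.6% were called lower, at an adjusted p under 0.05 (edgeR, quasi-likelihood). Of the 13 tested members 10 lay over the filter's level of 0.313 CPM in both groups, and 5 of these 10 (50%) were called higher, 2 (20%) lower and 3 not. The other 3, SERPINB2, SERPINB7 and SERPING1, passed the filter only through the shYEATS2 libraries and so had to differ upwards. Their counts are given below, with no test. The libraries of the groups did not overlap for 7 of the 10, against 71.6% of all tested genes in either direction. The shares and the median of all tested genes were not limited to genes over this level in both groups. The log2 fold changes of the 10 ran from −0.64 to 3.11 with a median of 0.15, and the median of all tested genes was −0.009. When library totals alone set the scale, that median of all genes moved to 0.125 and the calls over all genes went from 3857 higher and 4019 lower to 5441 higher and 2567 lower, and those among the 10 members stayed at 5 higher and 2 lower.

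**Figure D1:**
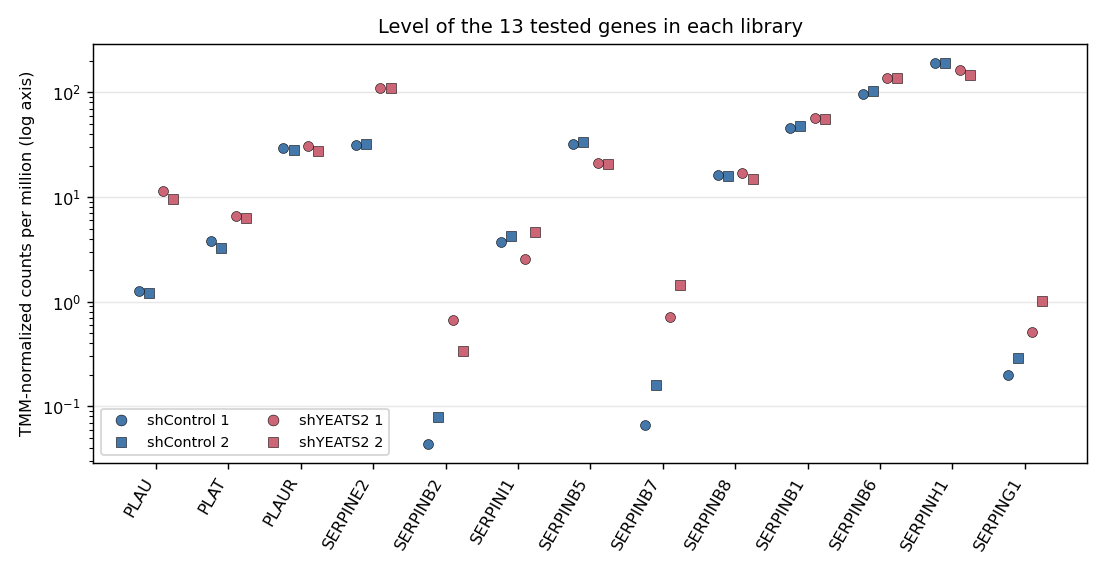
TMM-normalized level in CPM (log axis) of the 13 tested members in each of the 4 libraries, with shControl in blue, shYEATS2 in red, circles for replicate 1 and squares for replicate 2. PLAU lies at 1.22 to 1.26 CPM in shControl and 9.59 to 11.5 CPM in shYEATS2, and SERPINB2, SERPINB7 and SERPING1 are at low levels throughout.

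PLAU lies on chromosome 10 (GRCh38, 73909177 to 73917496, plus strand, 11 exons in the canonical transcript). Its level was 1.26 and 1.22 CPM in shControl (57 and 46 counts) and 11.5 and 9.59 CPM in shYEATS2 (291 and 113 counts). Both shYEATS2 libraries stood far above both shControl libraries, in raw counts too, although they were less deeply sequenced. The log2 fold change was 3.11 (standard error 0.187, adjusted p = 5.2e-23, edgeR), an 8.61-fold rise from 1.24 ± 0.0278 to 10.5 ± 1.34 CPM (mean ± SD, n = 2). Ranked by level per kb of exon (all annotated exon bases of a gene) among 16990 genes, PLAU went from place 13631 to place 7694. PLAU shares 915 exon bases with C10orf55, a gene on the opposite strand. The study's methods name a stranded library kit, but the strand setting of the counting was not given. Reads of this stretch therefore cannot be assigned with certainty. C10orf55 itself had 1 and 5 counts in shControl and 18 and 4 in shYEATS2, fewer than PLAU in every library. In bulk RNA a change in the share of cells that express a gene and a change in its RNA per cell cannot be told apart, here and for the genes below.

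PLAT (chromosome 8, 42174718 to 42207709, minus strand) moved the same way by less. Its level was 3.79 and 3.26 CPM in shControl and 6.63 and 6.28 CPM in shYEATS2. The groups did not overlap, and the log2 fold change was 0.88 (standard error 0.173, adjusted p = 2.1e-05, edgeR), a 1.84-fold rise. Per kb of exon PLAU was at 0.929 ± 0.0794 times the level of PLAT in shControl and at 4.29 ± 0.382 times in shYEATS2 (SD, n = 2), and by the length of the canonical transcript at 0.461 ± 0.0394 and 2.13 ± 0.190 times. The order of the 2 activators by level thus differed between the groups by either length.

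PLAUR (chromosome 19, 43646095 to 43670547, minus strand), the receptor that binds urokinase, was measured at 29.6 and 27.9 CPM in shControl and at 30.4 and 27.5 CPM in shYEATS2. These values overlapped. The log2 fold change was 0.02 with a 95% interval from −0.15 to 0.20 (adjusted p = 0.864, edgeR). Per kb of exon the receptor was at 15.4 ± 0.275 times the level of PLAU in shControl and at 1.83 ± 0.102 times in shYEATS2, against 39.8 ± 0.711 and 4.72 ± 0.264 times by canonical length (SD, n = 2).

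**Figure D2:**
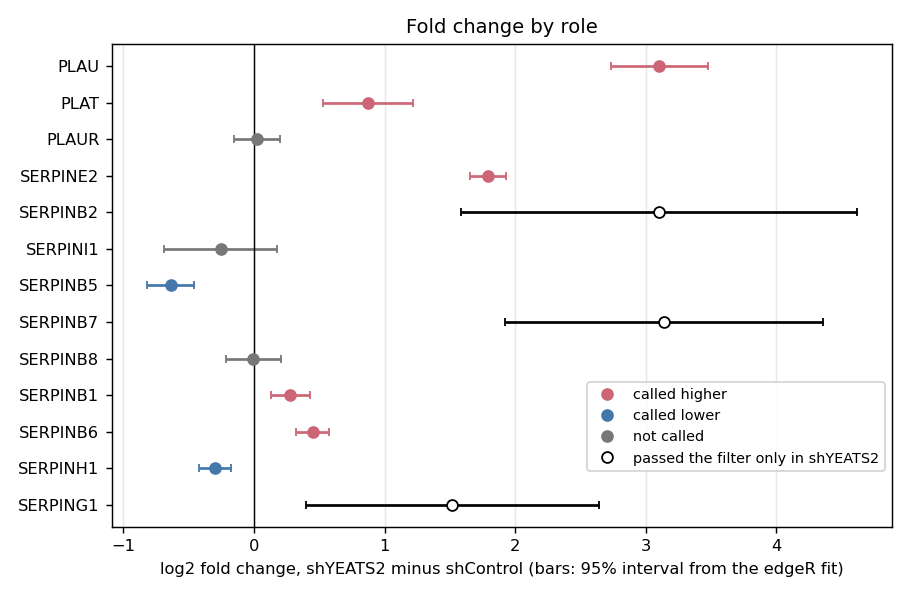
log2 fold change (shYEATS2 minus shControl) of the 13 tested members in edgeR, with bars for the 95% interval, in red where called higher, blue where called lower and grey where not called. Open black circles are SERPINB2, SERPINB7 and SERPING1, which passed the filter only through shYEATS2 and are shown with no call. The interval of PLAUR is narrow and includes 0, while those of the 3 low genes are wide. The filter fixed the direction of these 3, which their intervals do not allow for.

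Among the inhibitors of the activators, SERPINE2 (chromosome 2, 223975045 to 224039318, minus strand), which inhibits thrombin, urokinase and plasmin, rose. Its level was 31.1 and 32.2 CPM in shControl and 109.9 and 109 CPM in shYEATS2. Replicates lay close together and the groups were far apart, with a log2 fold change of 1.79 (standard error 0.07, adjusted p = 7.1e-33, edgeR), or 3.46-fold. Its rank per kb of exon went from 7757 to 3299 of 16990. Per kb of exon SERPINE2 was at 7.86 ± 1.04 times the level of PLAT in shControl and at 14.7 ± 0.512 times in shYEATS2, against 12.5 ± 1.65 and 23.4 ± 0.811 times by canonical length (SD, n = 2). The receptor PLAUR was at 1.83 ± 0.119 and 0.531 ± 0.0361 times the level of SERPINE2 per kb of exon. SERPINB2, another inhibitor of the activators, had 2 and 3 counts in shControl and 17 and 4 in shYEATS2. The summed counts were 21 against 5, a ratio of 9.41 per effective library size in a direction that the filter fixed. The smaller of the shYEATS2 values rests on only 4 counts, and 547 exon bases of SERPINB2 are shared with another annotated gene.

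SERPINI1, an inhibitor of tPA known from neurons, stood between 3.68 and 4.29 CPM in shControl and between 2.57 and 4.58 CPM in shYEATS2. The shYEATS2 libraries lay on opposite sides of the shControl pair, and the log2 fold change of −0.26 had a 95% interval from −0.69 to 0.18 (adjusted p = 0.346, edgeR). Without shYEATS2 replicate 2 the value was −0.64 and was called (adjusted p = 0.028). SERPINA5 had 4 counts in shControl replicate 1 and 0 elsewhere, and SERPINF2, the inhibitor of plasmin, had 7 and 2 counts in shControl and 1 and 7 in shYEATS2, so neither was tested.

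Ratios of counts within a library do not depend on how libraries are scaled. The log2 ratio of PLAU to PLAUR counts was −4.56 and −4.52 in shControl and −1.41 and −1.52 in shYEATS2. The difference of the means was 3.08, or 8.44-fold. Against the same receptor, the ratio of SERPINE2 was higher by 1.78 on the log2 scale and that of PLAT by 0.87. SERPINE2 relative to PLAU went the other way, with a log2 ratio of counts of 4.63 and 4.73 in shControl and 3.26 and 3.51 in shYEATS2, a fall by 1.29. The inhibitor and the activator thus both rose, the activator by more. With 2 libraries a group the exact two-sided permutation test cannot go below p = 0.333, which is what each of the 5 ratios computed gave, also after adjustment over them. Per kb of exon SERPINE2 was at 8.44 ± 0.397 times the level of PLAU in shControl and at 3.45 ± 0.426 times in shYEATS2, against 27.0 ± 1.27 and 11.03 ± 1.36 times by canonical length (SD, n = 2). The ratios by canonical length were added after the data had been seen.

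**Figure D3:**
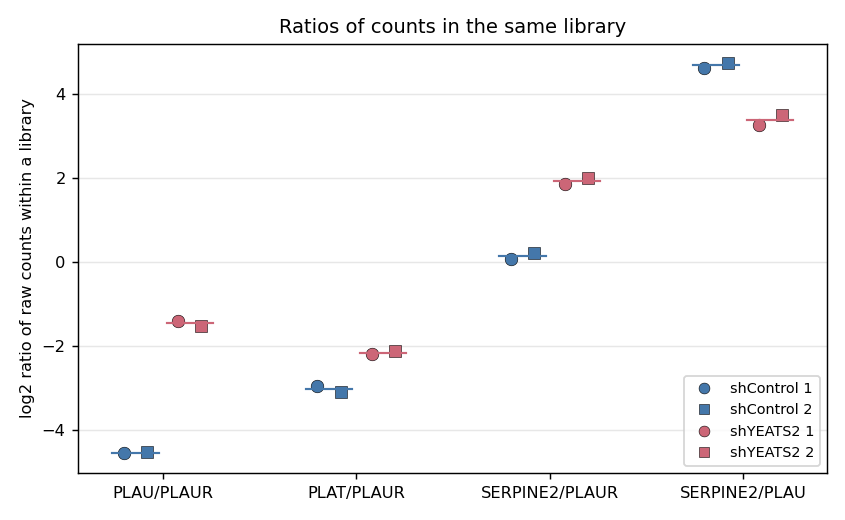
log2 ratio of raw counts of PLAU, PLAT and SERPINE2 to PLAUR and of SERPINE2 to PLAU within each library, with shControl in blue, shYEATS2 in red and short lines for group means. The PLAU to PLAUR ratio lies at −4.56 to −4.52 in shControl and −1.52 to −1.41 in shYEATS2, and the SERPINE2 to PLAU ratio is lower in both shYEATS2 libraries.

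The clade B serpins, which lack a classical signal peptide and act mostly inside cells, lie in 2 clusters. The cluster on chromosome 6 (2832332 to 2972165) holds SERPINB1, SERPINB9 and SERPINB6. SERPINB6, an inhibitor of cathepsin G, was at 97.5 and 103 CPM in shControl and at 137 and 136 CPM in shYEATS2. Its groups were well apart, with a log2 fold change of 0.45 (standard error 0.064, adjusted p = 1.3e-08, edgeR). SERPINB1, an inhibitor of neutrophil proteases such as elastase, was at 45.6 and 47.3 CPM in shControl and at 56.5 and 56.1 CPM in shYEATS2. It rose by less, with a log2 fold change of 0.28 (standard error 0.074, adjusted p = 0.0012, edgeR), and lost its call without shControl replicate 1 (adjusted p = 0.077). SERPINB9, the granzyme B inhibitor between them on the chromosome, had 2 and 8 counts in shControl and 5 and 2 in shYEATS2 and was not tested.

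The cluster on chromosome 18 (63476958 to 64019779) holds 10 clade B genes in the order SERPINB5, SERPINB12, SERPINB13, SERPINB4, SERPINB11, SERPINB3, SERPINB7, SERPINB2, SERPINB10 and SERPINB8. The genes at both ends were well measured and most of those between had 0 counts. SERPINB5 at its start (63476958 to 63505085, plus strand), known as maspin and as an epithelial gene, was at 31.8 and 33.6 CPM in shControl and at 21.2 and 20.7 CPM in shYEATS2. It fell, with a log2 fold change of −0.64 (standard error 0.09, adjusted p = 1.5e-08, edgeR) to 64.3% of control. This went in the direction of the summed squamous markers given above, although CDH1 among them was called higher. Their part in it was not tested. SERPINB8 at the other end, an inhibitor of furin, was between 14.8 and 17.0 CPM in all 4 libraries, with overlapping groups, a log2 fold change of −0.007 and a 95% interval from −0.22 to 0.20 (adjusted p = 0.965, edgeR). It shares exon bases with HMSD and with another gene, and HMSD had 5 to 19 counts in a library.

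SERPINB7, known from the epidermis, had 3 and 6 counts in shControl and 18 and 17 in shYEATS2. The summed counts were 35 against 9, a ratio of 8.71 per effective library size in a direction that the filter fixed. Its level was no more than 1.44 CPM in any library. SERPINB10 had 1 count in each of 2 libraries, and SERPINB3, SERPINB4, SERPINB11, SERPINB12 and SERPINB13 had 0 counts in all 4, which allows up to 0.0661 to 0.255 CPM (3 counts) depending on the library. SERPINB3 and SERPINB4, the squamous cell carcinoma antigens, are near-identical copies, so reads that map to both alike may have been left out of the counts. All limits on counts cover counting error only.

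**Figure D4:**
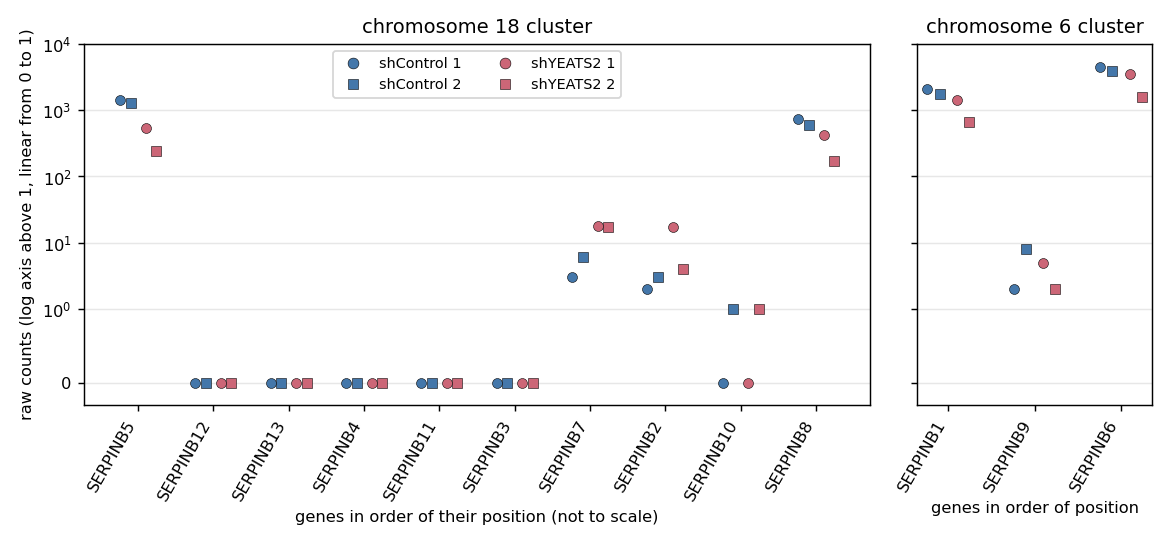
Raw counts (log axis above 1, linear from 0 to 1) of the clade B serpins in each library, in the order of the genes on chromosome 18 and on chromosome 6, with shControl in blue and shYEATS2 in red. The libraries differ in depth, so equal levels give fewer counts in shYEATS2. SERPINB7 and SERPINB2, which passed the filter only through shYEATS2, lie higher there, and 5 genes of the chromosome 18 cluster lie at 0.

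Outside these groups, SERPINH1 (chromosome 11, 75562056 to 75572783, plus strand), the chaperone of procollagen in the endoplasmic reticulum and no protease inhibitor, fell. Its level was 191 and 189 CPM in shControl and 162 and 145 CPM in shYEATS2. The groups did not overlap, with a log2 fold change of −0.30 (standard error 0.062, adjusted p = 4.9e-05, edgeR), or 81.3% of control, and the value was −0.17 with library totals alone. Its clients COL1A1 and COL1A2, both on the fibroblast marker list, had log2 fold changes of −1.65 and −1.67, so the log2 ratio of SERPINH1 to COL1A1 counts was higher by 1.34 in shYEATS2 (exact permutation p = 0.333, adjusted 0.333). Whether the marker genes had a part in the fall of SERPINH1 was not tested. SERPING1, the C1 inhibitor of the complement and contact systems, had 9 and 11 counts in shControl and 13 and 12 in shYEATS2. The ratio was 2.80 per effective library size, in a direction that the filter fixed.

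The remaining 24 members were not tested. Of these, 11 had 0 counts in all 4 libraries and 13 had 1 to 17 counts in total. All 11 clade A serpins, which include secreted plasma inhibitors made mainly by the liver such as SERPINA1 (alpha-1-antitrypsin) and SERPINA3, were among them, with 6 at 0 and at most 4 counts in total. The chromosome 14 cluster (94280460 to 94624055), which holds 10 of the 11, thus had no member with a measurable level in any library. The plasma inhibitors of coagulation SERPINC1 (antithrombin) and SERPIND1 (heparin cofactor 2) had 5 counts and 1 count in total, and the secreted SERPINF1 had 6. SERPINE3 and SERPINI2 had 4 counts and 1 count.

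The sequences before the start sites were searched for short motifs. In RefSeq's promoter windows (GRCh38.p14), 29 of the 37 members had an entry, and PLAT had none. The 250 bases before the start were read on both strands for 3 motifs, which are the GC box (GGGCGG, the core of SP1 sites), AP-1 (TGACTCA) and a TATA box (TATAAA). A GC box stood in the windows of 7 of the 29 members, against 42.6% of 35116 windows. Among the members with a call and at least 5 CPM on average, the windows of PLAU, SERPINE2, SERPINB5, SERPINB1 and SERPINB6 held at least 1 and that of SERPINH1 held none, so it occurred with rises and with a fall. The AP-1 letters stood in 4 of the 29, those of PLAUR, SERPINB7, SERPINB8 and SERPINB13, against 4.2% of all windows. TATAAA stood in 5 of the 29, against 10.7%. For each member only the window nearest its canonical start was read, while the percentages cover all windows, of which a gene can have more than 1. The shares are thus not of like sets, and no excess was tested. The 2 highest-rising genes over the filter in both groups and the gene that fell most are shown, 5′ to 3′ on the strand of the gene and without bases in an annotated exon of the same gene, with GC boxes of either strand in capitals. They are chr10:73910882-73911103 (plus strand) for PLAU, chr2:224038805-224038890 (minus strand) for SERPINE2 and chr18:63476708-63476957 (plus strand) for SERPINB5.
PLAU: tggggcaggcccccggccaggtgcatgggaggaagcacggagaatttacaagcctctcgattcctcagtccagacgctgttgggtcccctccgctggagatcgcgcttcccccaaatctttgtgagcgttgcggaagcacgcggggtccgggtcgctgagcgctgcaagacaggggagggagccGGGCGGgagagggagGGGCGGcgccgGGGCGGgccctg
SERPINE2: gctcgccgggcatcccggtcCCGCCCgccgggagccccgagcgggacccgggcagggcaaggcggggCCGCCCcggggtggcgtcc
SERPINB5: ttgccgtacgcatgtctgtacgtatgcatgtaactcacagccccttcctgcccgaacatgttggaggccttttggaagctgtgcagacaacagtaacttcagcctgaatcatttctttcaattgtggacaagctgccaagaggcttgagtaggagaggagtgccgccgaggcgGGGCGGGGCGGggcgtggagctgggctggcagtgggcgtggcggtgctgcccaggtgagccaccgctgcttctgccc
The PLAU stretch holds 3 GC boxes at 66, 51 and 40 bases before the start, and 68.9% of its bases are G or C. C10orf55 on the opposite strand shares exon bases with PLAU, as given above. In the SERPINE2 stretch, 86% of whose bases are G or C, there are 2 at 230 and 183 bases before a start that lies 646 bases from the start of the canonical GENCODE transcript. The stretches of PLAU and SERPINE2 both lie inside the annotated span of their gene, after its outermost annotated start. The 2 boxes of SERPINB5, at 77 and 72 bases, overlap by 1 base in a run where the whole stretch is 60% G or C. A match of letters is not a measured binding site.

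Genes that act next to the members were taken from 4 lists chosen by role. Of the 42 genes tested on them 10 (23.8%) were called higher, against 22.6% of all tested genes, and 20 (47.6%) lower, against 23.6%. With library totals alone 10 were higher and 13 lower. On the list of plasmin surface, clearance and co-factor genes, 9 of 15 were tested, and 1 was higher and 5 were lower, with a median log2 fold change of −0.23. LRP1, the endocytic receptor that clears urokinase bound to its inhibitors, was at 393 and 383 CPM in shControl and at 262 and 234 CPM in shYEATS2, a fall by 0.64 on the log2 scale. Its chaperone LRPAP1 fell by 0.38. The plasminogen-binding proteins ENO1 and ANXA2 fell by 0.30 and 0.26 on the log2 scale, and S100A10, the partner of ANXA2, had a log2 fold change of 0.006 and was not called. IGF2R, which binds both plasminogen and uPAR, was at 465 and 469 CPM in shControl and at 708 and 679.9 CPM in shYEATS2, a log2 rise of 0.57. Plasminogen itself (PLG) and vitronectin (VTN), a matrix protein that uPAR binds, had 0 counts in all libraries, so RNA of the activators' substrate was not detected at this depth.

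On the coagulation list 12 of 26 genes were tested, and 4 were higher and 4 lower (median −0.06). Without shControl replicate 1 or without shControl replicate 2, as with library totals alone, 2 of this list were lower. F3 (tissue factor), which starts the extrinsic pathway, was at 287 and 291 CPM in shControl and at 156 and 168 CPM in shYEATS2, a fall by 0.84 on the log2 scale. TFPI2, a Kunitz inhibitor of plasmin and other proteases, fell by 1.31, and F2RL1 (PAR2) and PROS1 (protein S) by 0.28 and 0.18. Among the genes called higher, the log2 fold change was 1.37 for F2RL2 (PAR3) and 0.75 for THBD (thrombomodulin), which both bind thrombin, and 0.25 for the inhibitor TFPI. Fibrinogen genes and prothrombin (F2) had at most 3 counts in any library.

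Of 32 proteases listed around the serpin family 13 were tested, with 4 higher and 7 lower (median −0.18). Without shControl replicate 1, with DESeq2 or without the filter on low counts, 2 of this list were higher. HTRA1, a secreted serine protease, was at 263 and 283.5 CPM in shControl and at 138 and 130.1 CPM in shYEATS2, a fall by 1.02 on the log2 scale. FURIN, the target of SERPINB8, fell by 0.77, CASP1 by 0.53 and C1R, a target of SERPING1, by 0.30. LONP1 and CASP8 were higher by 0.40 and 0.21 on the log2 scale. Of 18 inhibitors outside the serpin family 8 were tested, with 1 higher and 4 lower (median −0.23). RECK, a membrane-anchored inhibitor of metalloproteases, fell by 0.78 and the cystatins CSTB and CST3 by 0.33 and 0.18, while cystatin A (CSTA), known from squamous epithelium, had a log2 fold change of 0.54. These lists were tested gene by gene in the same fit and compared with the median of all genes, −0.009, and nothing is called particular to them.

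**Figure D5:**
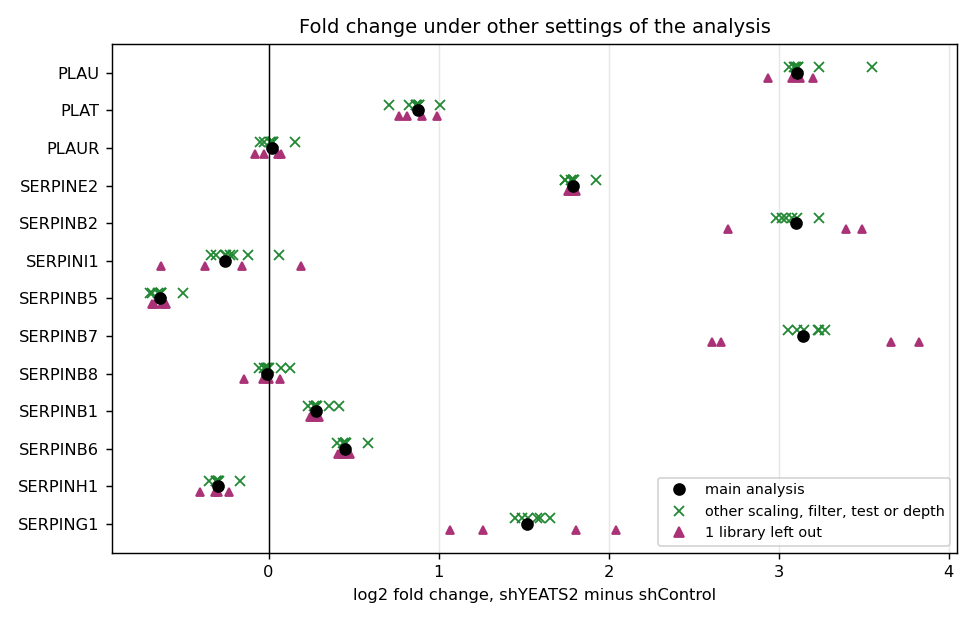
log2 fold change (shYEATS2 minus shControl) of each tested member in the main analysis (black circles), under other scalings, filters, tests or depth (green crosses) and with 1 library left out (purple triangles). PLAU stays between 2.93 and 3.55, PLAT between 0.71 and 1.01, SERPINE2 between 1.74 and 1.93 and SERPINB5 between −0.70 and −0.50, while PLAUR, SERPINB8 and SERPINI1 lie on both sides of 0.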

How the data were processed

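RNA was sequenced as pairs of 150 bp reads. Per the paper's methods the authors used STAR for the alignment to GRCh38 and HTSeq to count reads on genes. The deposited values are raw counts, with no normalization, and each file ends with tallies of reads given to no gene, which were left out (7.639 to 8.572% lay outside genes). The STAR version, annotation release and strand setting are not given in the sources used here.

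Genes passing edgeR's filterByExpr (17058) were scaled with TMM and tested in 1 fit of all 4 libraries (edgeR 4.0.16, glmQLFit with robust = TRUE and glmQLFTest, R 4.3.3), with Benjamini-Hochberg adjustment over all of them and a call at an adjusted p under 0.05. The code was tested on simulated data. The common biological coefficient of variation was 4.95%, and replicates differed by more than counting noise (chi-square per degree of freedom 5.95 and 5.39). No pairing by equal replicate numbers was seen (correlation of deviations −0.0184). With 2 libraries a group this cannot exclude that such libraries were prepared together. GENCODE release 44 gave positions and exon lengths for 60295 of the 60623 identifiers and all 37 members described. The results of 1 member, with a planned ratio that needs it, are not reported here.

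The members and lists were chosen with earlier results of these data known. Values are given for called members that average 5 CPM or more and, of each list, for up to 4 called genes in each direction that average 10 CPM or more and whose groups do not overlap. The library values of PLAT, PLAUR and the low members, and every ratio, were chosen after their values were seen. So were S100A10, PLG, VTN, F2, TP63, CDH1, KRT5, KDR, TIE1, CLDN5 and the collagens. The alternatives tried were scaling by library totals or by DESeq2's size factors, other filters, DESeq2 1.42.0, limma-voom (limma 3.58.1), a replicate block, thinned counts, a 2-fold minimum and each library left out.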

Additional observations from a re-analysis of the deposited data

How the results depend on the processing

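Of the 10 members over the filter's level in both groups, a count added after the data had been seen, 5 were called higher and 2 lower under every alternative except a 2-fold minimum (2 higher, 0 lower) and single libraries left out (4 to 5 higher, 2 to 3 lower). With the 3 members that passed only through shYEATS2, whose direction the filter fixed, the counts were 8 higher and 2 lower, and 5 higher with at least 10 counts in every library, thinned to the smallest library or with a 2-fold minimum, the last with 0 lower. Single libraries left out gave 6 to 7 higher and 2 to 3 lower. Over all genes, 2392 were called higher with DESeq2 and 2567 lower with library totals alone, and a 2-fold minimum left 1022 higher and 631 lower. The 4 lists had 13 genes lower with library totals, and 2 higher and 3 lower with a 2-fold minimum. With a replicate block the fit called 5 of the 10 members higher and 2 lower, so the block changed no call of these 10. Over all genes it called 3870 higher and 4142 lower, and it gave YEATS2 a log2 fold change of −1.19. The difference in the PLAU to PLAUR log2 ratio, added after the data had been seen, ran from 3.02 to 3.13 with each library left out. Of the 149 values of the members' fold changes under the alternatives, 131 kept direction and side of the threshold. Among the 149 are those of SERPINB2, SERPINB7 and SERPING1, whose direction the filter fixed, so their steadiness carries no weight. The 6 that lost a call were of SERPING1 and SERPINB1. SERPING1, given above with no test, passed the threshold neither with DESeq2 nor in edgeR without a filter. Its log2 fold change ran from 1.07 to 2.04 with each library left out, and no call is made for it. The 11 that changed sign were all of genes not called: PLAUR at −0.026 without a filter and −0.050 thinned (−0.081 to 0.075 with each library left out), SERPINB8 at 0.13 with library totals, 0.0022 with limma-voom and 0.072 thinned (−0.15 to 0.065), and SERPINI1 at 0.059 thinned (−0.64 to 0.19). The cause was not tested. Depth limits the genes with few counts, SERPINB2, SERPINB7 and SERPING1, most in shYEATS2 replicate 2, in which 3 counts are 0.255 CPM.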
